A study of Mus musculus with 19 samples.

Results

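The 7 genes of microtubule-associated proteins Map1a, Map1b, Map2, Map4, Map6, Map7 and Mapt were chosen by name, with earlier results of these data known. All 7 were among the 24130 Ensembl genes listed in the segments of the primary somatosensory cortex (S1). They carried 15 of the 46931 listed transcripts. Polyadenylated RNA was sequenced from 6 adjacent slices of S1 of C57BL/6 (C57BL/6J in the study's methods) male mice aged 56 days, untreated and of 1 genotype as far as the labels say. Segment A was mostly layers 1 to 3, B layer 4, C and D layer 5 (C above D), E layer 6 and F layer 6b. RNA of 8 mice was pooled for each library, except that segment B was split by litter into libraries B1 and B2 of 4 of these mice each, the only replicates. A slice is a tissue sample with all its cell types, and the 12 samples of dorsal and lateral cortex were not analysed here.

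Microtubule-associated proteins bind along the microtubule lattice, stabilise it and space the filaments. In neurons they are sorted to compartments, with tau (the product of Mapt) known for the axon, MAP2 for the dendrite and cell body, MAP1A and MAP1B for both, and MAP6 (STOP) for cold-stable microtubules, whereas MAP4 and MAP7 (ensconsin) are also expressed in many cells outside the nervous system. Mapt, Map2 and Map4 form 1 family with a carboxy-terminal domain of tubulin-binding repeats, and Map1a and Map1b form another family, translated as a polyprotein that is cut into a heavy and a light chain.

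An exon of the repeat domain is shown for Map2 and Map4, because these genes differed in whether their models held it. It is coding and 93 nt long in both, and capitals mark the bases that both share (GENCODE M21, GRCm38, plus strand). It lies at chr1:66431527-66431619 in Map2 (exon 12 of 15 of ENSMUST00000114017) and at chr9:110072613-110072705 in Map4 (exon 15 of 19 of ENSMUST00000035055).
Map2: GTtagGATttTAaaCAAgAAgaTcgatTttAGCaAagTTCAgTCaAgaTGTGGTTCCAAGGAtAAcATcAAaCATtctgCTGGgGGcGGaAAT
Map4: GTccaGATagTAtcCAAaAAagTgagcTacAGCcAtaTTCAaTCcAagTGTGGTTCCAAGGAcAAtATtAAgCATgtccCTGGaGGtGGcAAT
Map2 and Map4 shared 59 of these 93 bases (63.4%). The next exon, of 82 nt in both genes, had 50 bases in common, and the one after it, of 113 nt, had 82, so that the lengths of these exons were the same in both genes.

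Expression was taken as FPKM, fragments scaled to the length of the model and to the mapped fragments of the library, with the 95% interval that cufflinks estimated from the reads of 1 library. FPKM is scaled to the length of the model, so a comparison of levels between genes depends on the models used. Relative to the FPKM, the median interval was narrowest in B2 (10.8%) and widest in A (16.8%), at an estimated 31500000 to 75400000 fragments a library. The intervals hold no variation between mice. All 7 members were classifiable, which here means that the widest interval of the 7 libraries was at most 50% of the mean FPKM, as for 11409 genes. The trend with depth was tested over the 7 libraries with limma, as a linear and a quadratic term of segment position on log2(FPKM + 0.1), with p-values adjusted by Benjamini-Hochberg over the 11409 genes and a threshold of 0.05. The p-value, here and for the shares of transcripts, is that of an F-test of both terms together. Its residual spread holds the difference between B1 and B2 and also the misfit of single libraries to the fitted curve. It is thus not a spread between replicates alone. The linear term, in log2 units per segment from A to F, gives the direction. A gene is said to rise or fall by the sign of this term, and its course need not be monotone. Library A stood apart in the trend test: 43.5% of the genes passed with it and 10.1% without it. The mitochondrial share of the summed FPKM was 21.8% in A and 18.2% in B2. It was 7.76% in B1, 9.79% in C and 5.03% in F.

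By mean FPKM over the 7 libraries the order was Map1a (215), Mapt (142), Map1b (132), Map2 (122), Map4 (56.7), Map6 (46.8) and Map7 (15.5). Map1a ranked 151 and Map7 ranked 3917 among the 24130 listed genes. This order is that of the Ensembl models. The spliced de novo models summed to 73.5 (F) to 142 (B1) FPKM for Map1a and to 50.5 (A) to 275 (F) for Map4. Between the lowest and the highest segment the members differed by a median of 1.03 log2 units, against 1.08 over all classifiable genes, and B2 differed from B1 by a median of 0.36, against 0.29. Of the 7 members 3 passed the trend test, Map2 and Map7 with a rising and Mapt with a falling linear term, at a background of 43.5% of all genes (35.5% rising and 8.06% falling). With the libraries rescaled by the median of ratios, 17.3% of all genes rose and 15.6% fell. The FPKM were divided by factors of -0.39 (A) and 0.20 (F) on the log2 scale, which raised A and lowered F. This scaling called 33% of all genes and 4 members, Map1a being added, and the sign of the linear term of each of the 7 members was the same under both scalings. In bulk tissue, fewer cells of a type and less RNA per cell cannot be told apart.

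**Figure D1:**
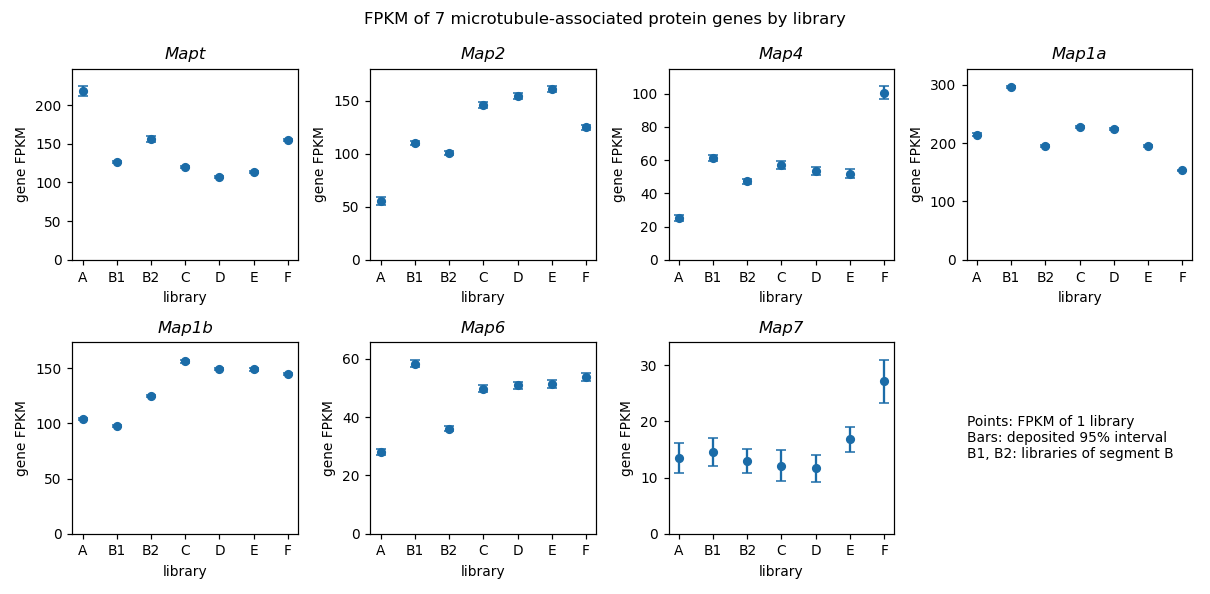
FPKM of each gene (y axes, linear from 0) in the 7 libraries (x axes), with the deposited 95% interval of each value as bars. Map2 was lowest in A (55.4) and Map4 and Map7 highest in F (101 and 27.1), while Mapt was highest in A (219), and B1 and B2 of Map1a (296 and 195) and Map6 (58.3 and 36.0) lay far apart.

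Map2, the dendritic member, lies at chr1:66298236-66489155 in the files' build, mm9. Its FPKM was 55.4 (A), 110 (B1), 101 (B2), 146 (C), 155 (D), 161 (E), then 125 (F). The level was lowest in A, B1 lay above B2 beyond their intervals, and no pair of segments had overlapping intervals, with E above D above C above F above B above A. The 2.90-fold difference between E and A (1.54 log2 units) was larger than that between B1 and B2 (0.13). The linear term of Map2 was 0.21 ± 0.036 (SE) log2 units per segment (limma, adjusted p of both terms 0.0050), and 0.11 after median of ratios (adjusted p = 0.016). In a fit with the linear term only, Map2 did not pass (limma adjusted p = 0.10). Without library A the linear term was 0.095 and did not pass (adjusted p = 0.069).

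For Map2, 3 transcripts were listed. ENSMUST00000024639 had 60.8% of the summed FPKM (A), 78.5% (B1), 83.4% (B2), 73.6% (C), 75.4% (D), 71.5% (E), then 69.2% (F). ENSMUST00000114013, which begins at a start farther downstream, had 11.1% (A), 21.5% (B1), 16.6% (B2), 26.4% (C), 24.6% (D), 28.5% (E), then 30.8% (F), and its FPKM in F was 6.25 times that in A. The remaining 28.1% in A was ENSMUST00000133522, a model of 849 nt without a coding exon that was listed at 15.6 FPKM in A and unlisted in the other 6 libraries. It enters the sum by which the shares in A were divided.

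MAP2 is known in a high-molecular-weight form, which carries a long projection domain, and in a short form common in the immature brain. The release 57 model of ENSMUST00000024639 was 9278 nt long in the files, 4083 nt more than in GENCODE M21, and 4083 nt is the summed length of the 3741-nt, 207-nt and 135-nt exons of ENSMUST00000114013, so the listed FPKM does not separate the forms. In the de novo models, which cufflinks built from each library without annotation, the 3741-nt exon (chr1:66458981-66462721, mm9) was in 100% of the FPKM of the spliced Map2 models that spanned it, in all 7 libraries. An internal exon of 93 nt, the length of the repeat exon shown above, was in 0 of the 8 spliced Map2 models. Models below 5% of the main transcript of a locus are not listed, so a lower use of either form could not be seen.
The first exon of the de novo Map2 models differed between segments. The upstream start (66298236, mm9) had 16.2% of the FPKM of the models that began at either start (A), 37.0% (B1), 34.1% (B2), 42.3% (C), 42.9% (D), 35.6% (E), then 41.7% (F). The share was lowest in A, and the spread over the other 5 segments, from 35.5% in B to 42.9% in D, was wider than the 2.89 percentage points between B1 and B2. The upstream and downstream groups held 4 and 2 of the 8 spliced Map2 models. They had 6.03 and 31.1 of 37.2 spliced FPKM in A, 21.9 and 42.3 of 101 in B2, and 37.7 and 52.7 of 131 in F. The share thus covers a larger part of the FPKM in A than in B2 or F. The listed Ensembl transcripts differed from this in level and direction, since there ENSMUST00000024639, with the upstream start, had 60.8% to 83.4%, and the share of ENSMUST00000114013, with the downstream start, was higher in F than in A, whereas the downstream start of the de novo models went from 83.8% in A to 58.3% in F. Which source gives the use of the starts was not tested.

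Mapt, which encodes tau, lies at chr11:104092704-104193404 (mm9). Its Ensembl FPKM was 219 (A), 126 (B1), 157 (B2), 120.0 (C), 107 (D), 114 (E), then 155 (F). The level was highest in A and lowest in D, with F and B2 between, and the range of 1.03 log2 units was larger than the 0.31 between B2 and B1. The linear term of Mapt was a fall of 0.093 on the log2 scale per segment (SE 0.039, limma adjusted p of both terms 0.020). In a fit with the linear term only, Mapt did not pass (limma adjusted p = 0.37). The fall rested on library A, since without A the linear term was -0.0042 and did not pass (adjusted p = 0.18). It also missed the threshold without C, D or E (adjusted p = 0.055, 0.072 and 0.060).
It also rested on 1 transcript. ENSMUST00000106993, of 1527 nt, was listed at 121 FPKM in A and 35 in B2 and unlisted in the other 5 libraries, where ENSMUST00000106992 had 100% of the FPKM. ENSMUST00000106992 alone had 97.5 FPKM (A), 126 (B1), 121.5 (B2), 120.0 (C), 107 (D), 114 (E), then 155 (F), which made A the lowest library and F the highest. With ENSMUST00000106993 taken out of the gene, an alternative chosen after the data were seen, the linear term turned to 0.068 and did not pass (limma adjusted p = 0.46).
The 2 transcripts differ in length (5253 nt for ENSMUST00000106992), mostly through the last exon, of 4119 nt in ENSMUST00000106992 and 464 nt in ENSMUST00000106993, and the first exon, of 218 and 93 nt. ENSMUST00000106993 also has a coding exon of 54 nt that the other lacks (exon 6 of 11, chr11:104307881-104307934, GRCm38, plus strand), which is shown because it is the coding difference between them.
Mapt 54-nt exon: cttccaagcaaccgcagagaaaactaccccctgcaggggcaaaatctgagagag
An internal exon of this length was in 0 of the 3 spliced de novo models of Mapt. The de novo assembly of A also held 14 unspliced models inside Mapt introns and that of B2 held 9, against 0 in each of the other 5 libraries, so unspliced intronic models and the transcript were seen in the same 2 libraries. Over the 7 members A held 100 unspliced intronic models, B2 43 and the other libraries 11 to 22. Their part in the Mapt value was not tested.

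The spliced de novo models summed to 126 FPKM of Mapt (A), 110 (B1), 111 (B2), 121 (C), 107 (D), 115 (E), then 149.6 (F). By this sum the libraries lay between 107 and 126 apart from F, and the linear term was 0.039 (limma adjusted p = 0.25). The 3 models differed in 2 amino-terminal exons of 87 nt, which lengthen the projection domain of tau. Both are coding and are shown because they are what separated the models (exons 3 and 4 of 12 of ENSMUST00000100347, GRCm38, plus strand, at chr11:104287123-104287209 and chr11:104289908-104289994).
Mapt first 87-nt exon: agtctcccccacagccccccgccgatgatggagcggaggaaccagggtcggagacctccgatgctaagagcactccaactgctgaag
Mapt second 87-nt exon: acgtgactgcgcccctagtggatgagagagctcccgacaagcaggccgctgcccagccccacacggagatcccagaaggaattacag
The model with neither exon had 85.1% of the spliced FPKM (A), 78.0% (B1), 85.7% (B2), 83.8% (C), 83.0% (D), 82.4% (E), then 92.3% (F). The model with both had between 6.56% in B2 and 10.8% in B1. The model with the first exon alone had between 6.44% in C and 11.2% in B1 and was unlisted in F. The form without either exon was thus the main one in each library, and the differences between segments other than F were within the 7.76 percentage points between B1 and B2.

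**Figure D2:**
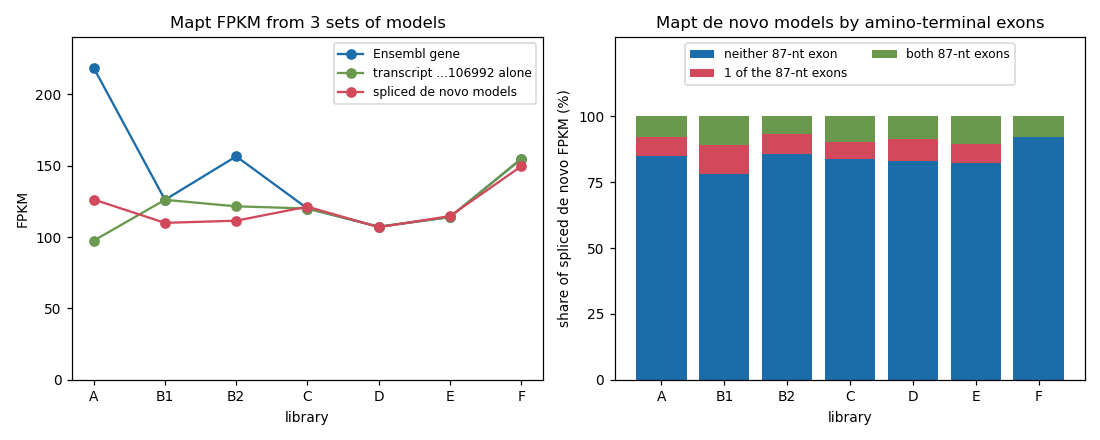
Left, Mapt FPKM (y axis, from 0) by library for the Ensembl gene, for transcript ENSMUST00000106992 alone and for the sum of the spliced de novo models. The Ensembl total in A (219) and B2 (157) stands above the other sums, which lie close together from C to F. Right, share of the spliced de novo FPKM (y axis, in percent) of the models with neither, 1 or both of the 87-nt exons, by library. The model with neither exon has 78.0% to 92.3% in the 7 libraries.

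Map4, the member of the tau family that is expressed beyond neurons, lies at chr9:109833962-109986450 (mm9). Its gene FPKM was 25.1 (A), 61.3 (B1), 47.3 (B2), 56.9 (C), 53.7 (D), 52.0 (E), then 101 (F). Segments B to E had overlapping intervals, with A below and F above them, and F was 4.00-fold higher than A. The linear term was 0.25 ± 0.086 (SE) and did not pass (limma adjusted p = 0.11), while without library B1 it was 0.29 and passed (adjusted p = 0.044).

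The shares of the 2 classifiable isoforms behind this total moved in opposite directions between A and F, though both isoforms had more FPKM in B1 and B2 than in A. ENSMUST00000072772 had 3.32 FPKM (A), 11.9 (B1), 9.35 (B2), 15.4 (C), 19.9 (D), 24.7 (E), then 61.8 (F), an 18.6-fold difference between F and A, and its share went from 13.2% in A to 61.4% in F. ENSMUST00000065171, which starts downstream, had 17.3, 44.1, 31.2, 33.9, 26.8, 17.7 and 19.0 FPKM in the same order of libraries, and its share went from 68.9% in A, 71.9% in B1 and 66.0% in B2 to 18.9% in F. ENSMUST00000035055 had 8.69% to 19.7%, with intervals too wide to be classifiable. The shares of the first 2 differed between A and F by 48.2 and 50.0 percentage points, against 0.40 and 5.89 between B1 and B2.
On the scale of log2 odds of a transcript's share, their linear terms were 0.66 ± 0.076 and -0.67 ± 0.082 (SE) per segment, with unadjusted p of 0.00064 and 0.00072 and an adjusted p of 0.18 for each (limma, over 11386 transcripts). No transcript of any gene passed this test at 0.05, while 2479 (21.8%) had an unadjusted p of at most 0.05, and of the 14 member transcripts tested 0 passed and 6 were below that unadjusted level.
By the deposited intervals, Map4 had 1 classifiable isoform higher in the first segment and another higher in the second in 8 of the 15 pairs of segments and not between B1 and B2. Of 2010 genes with at least 2 classifiable transcripts, the share that met this was 8.81% for B against D, 11.2% for B against E, 12.3% for B against F, 21.2% for C against D, 19.5% for C against E, 23.8% for C against F, 22.1% for D against E and 26.2% for D against F. Mapt met it in the 5 pairs with A, where the share was 15.7% against B, 28.4% against C, 30% against D, 29.8% against E and 31.3% against F, and also between B1 and B2 (38.9%). After median of ratios Mapt met it in 1 pair, A against F, Map4 in 10 and Map2 in 2. Of the 5 members with 2 such transcripts these 2 met it in any pair, against 64.9% of all genes, a larger share than in the members, which was not tested.

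The de novo models gave a second view of the same locus. Models that held the 1134-nt internal exon of the upstream form summed to 2.88 FPKM (A), 10.5 (B1), 11.8 (B2), 16.3 (C), 22.4 (D), 35.2 (E), then 82.7 (F), 28.7-fold higher in F than in A. Models with the long first exon of the downstream start summed to 15.5, 44.2, 38.8, 41.7, 36.4, 22.3 and 22.0 FPKM. The upstream form thus had 15.7% of the sum of both (A), 19.2% (B1), 23.4% (B2), 28.1% (C), 38.2% (D), 61.2% (E), then 79.0% (F), increasing at each step, with 4.11 percentage points between B1 and B2. Models in neither group are left out of this share, and all spliced Map4 models summed to 50.5 FPKM in A and 275 in F. These sums come from the same reads as the Ensembl values and are no independent replicate of them.
The upstream form was defined by the 1134-nt exon and not by its start. A model of 4 exons that also begins at the upstream start was left out (15.4 FPKM in A, 56.1 in E and 42.2 in F). The shares above are therefore not the use of the starts. The DNA around both annotated starts is shown as a description of the locus (RefSeq, GRCm38.p6, plus strand, windows of 300 bases across the start, with CG dinucleotides in capitals). Whether each model of the upstream form begins in the upstream window was not checked. The first exon of ENSMUST00000164930, a GENCODE transcript with the downstream start, begins inside the downstream window.
Map4 upstream start, chr9:109931524-109931823: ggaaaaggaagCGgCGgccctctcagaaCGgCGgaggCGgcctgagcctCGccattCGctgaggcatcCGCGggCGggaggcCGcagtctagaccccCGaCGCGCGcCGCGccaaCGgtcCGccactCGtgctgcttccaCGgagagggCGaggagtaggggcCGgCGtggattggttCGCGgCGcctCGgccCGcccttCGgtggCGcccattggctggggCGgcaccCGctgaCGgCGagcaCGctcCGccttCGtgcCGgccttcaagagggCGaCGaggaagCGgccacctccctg
Map4 downstream start, chr9:110051771-110052070: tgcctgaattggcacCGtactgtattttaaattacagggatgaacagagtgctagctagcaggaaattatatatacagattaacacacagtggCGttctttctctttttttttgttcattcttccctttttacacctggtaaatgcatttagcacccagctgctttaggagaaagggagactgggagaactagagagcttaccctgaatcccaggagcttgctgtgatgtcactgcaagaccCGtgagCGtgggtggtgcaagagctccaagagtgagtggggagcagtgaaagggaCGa
The upstream window had 42 CG dinucleotides and 73.3% G or C, and 3.03% of the 32851 RefSeq promoter windows held as many. The downstream window had 5 and 46.0%, against a median of 7 over all windows. This is a description of the sequence and was not related to the expression values by a test.
The 93-nt repeat exon was in 52.8% (B1) to 77.8% (C) of the FPKM of the Map4 models that spanned it, and B1 and B2 differed by 10 percentage points. The use of a 222-nt exon (109966732-109966953, mm9) was 58.2% in A, 37.8% in B1, 36.3% in B2 and 25% to 28.7% in C to F, a difference between A and E of 33.2 percentage points against 1.58 between B1 and B2. A 190-nt exon (109983925-109984114) went from 54.8% in A to 82.6% in F, but B1 (62.5%) and B2 (43.3%) were 19.1 points apart.

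**Figure D3:**
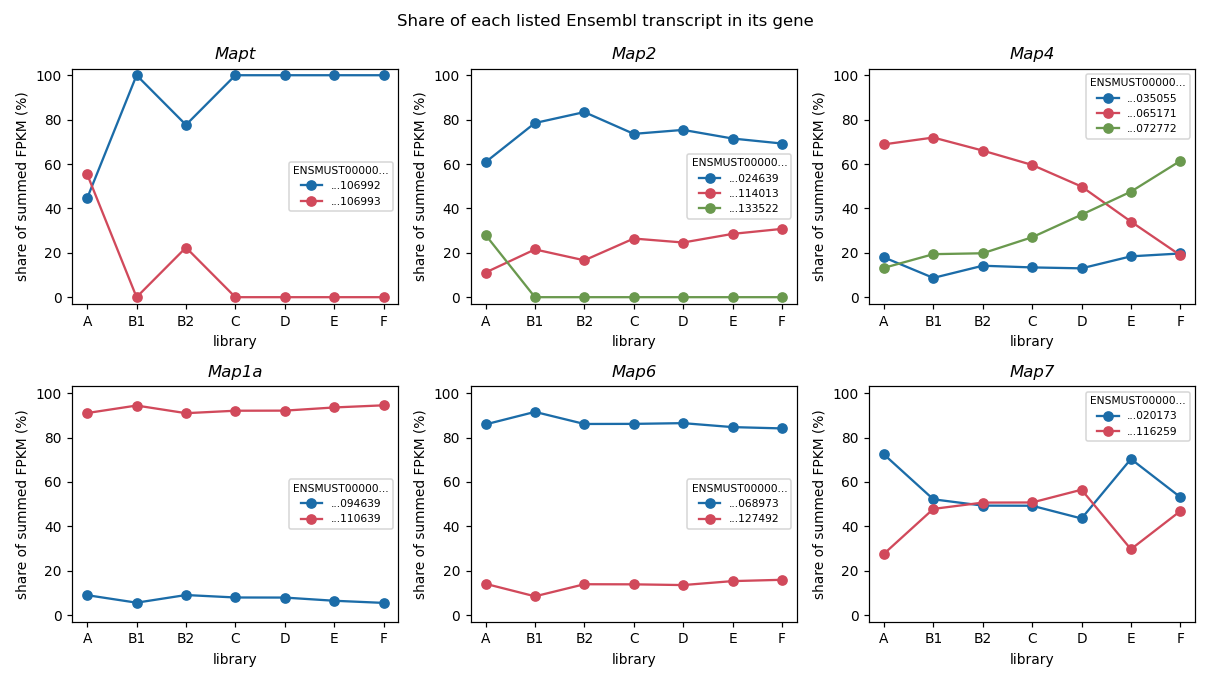
Share of each listed Ensembl transcript in the summed FPKM of its gene (y axes, in percent) for the 6 genes with at least 2 transcripts, by library. The Map4 lines cross between D and E, and from D to F ENSMUST00000065171 goes from 49.8% to 18.9% and ENSMUST00000072772 from 37.2% to 61.4%, while the main transcripts of Map1a and Map6 stay between 84.1% and 94.5%.

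Map7, a microtubule-binding partner of kinesin, lies at chr10:19868819-19998505 (mm9). Its FPKM was 13.5 (A), 14.6 (B1), 13 (B2), 12.1 (C), 11.6 (D), 16.8 (E), then 27.1 (F). Segments A to D had overlapping intervals, as did B1 and B2, E overlapped A, B and C, and F was above every other segment, 2.33-fold higher than D. The linear term of Map7 was 0.16 ± 0.045 (SE) log2 units per segment (limma adjusted p of both terms 0.020), and 0.059 after median of ratios (adjusted p = 0.023). In a fit with the linear term only, Map7 did not pass (limma adjusted p = 0.14). Without library F the linear term was 0.034 and did not pass (adjusted p = 0.48), so the call rested on the deepest segment, and without C or E it also missed the threshold (adjusted p = 0.059 and 0.051).
Its 2 listed transcripts, ENSMUST00000020173 and ENSMUST00000116259, begin at different starts (19868819 and 19949601, mm9) with different first exons. As listed they end at the same base (19998505) and are 2191 and 2251 nt long, against 4252 and 3831 nt in GENCODE M21. Their coding sequences differ by 24 nt of 1 exon (chr10:20261835-20261983, GRCm38, plus strand), which are in capitals in the longer exon of 149 nt. The shares of the transcripts therefore do not measure the use of these 24 nt alone.
Map7 longer exon: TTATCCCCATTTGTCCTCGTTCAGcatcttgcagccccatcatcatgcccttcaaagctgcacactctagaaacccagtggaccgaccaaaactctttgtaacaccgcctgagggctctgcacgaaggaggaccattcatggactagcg
The share of ENSMUST00000116259 was 27.6% (A), 47.8% (B1), 50.7% (B2), 50.7% (C), 56.5% (D), 29.7% (E), then 46.9% (F), with no trend that passed (limma adjusted p = 0.65), and neither transcript was classifiable. In the de novo models the longer exon had 42.2% in B1 to 61.2% in D of the FPKM, and B1 and B2 differed by 13.7 points.
The start of the Map7 models changed more. Models with the downstream start (from 19890456, mm9) had 1.65 FPKM (A), 4.82 (B1), 4.76 (B2), 4.72 (C), 5.21 (D), 8.18 (E), then 17.8 (F). Those with the upstream start had 6.84, 8.63, 6.43, 7.06, 5.38, 8.02 and 10.9 FPKM. Of the sum of both groups, the downstream share was 19.5% (A), 35.8% (B1), 42.5% (B2), 40.0% (C), 49.2% (D), 50.5% (E), then 62.0% (F), a difference of 42.5 points between A and F against 6.68 between B1 and B2. The groups held 4 and 5 of the 14 spliced Map7 models. All spliced models summed to 21.8 FPKM in A and 37.6 in F, so the share covers a smaller part of the FPKM in A than in F. This downstream start is also not the start of ENSMUST00000116259 (19949601).

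Of the markers for the cells a slice could hold, the 10 oligodendrocyte genes were highest in F, as were the upstream Map4 form and Map7. Also highest in F were all 3 oligodendrocyte precursor genes, 4 of 8 astrocyte genes, 3 of 7 microglia genes and 1 of 9 neuronal genes. Among the other members, Map6 was highest in F by segment (53.6 FPKM), though library B1 was higher (58.3). Mapt was highest in F by ENSMUST00000106992 (155) and by its spliced de novo models (149.6), but in A by its Ensembl total (219). The share of all genes highest in F was not counted. All 10 oligodendrocyte genes rose (limma), and their summed FPKM was 331 (A), 850 (B1), 860.0 (B2), 1663 (C), 2228 (D), 4141 (E), then 12637 (F). The upstream Map4 form was higher at each step from A to F, as was this sum. The Map4 gene total was 56.9 FPKM in C, 52.0 in E and 101 in F. Map7 models with the downstream start had 1.65 FPKM in A, 4.72 in C and 17.8 in F. The Map7 gene total was 13.5 FPKM in A, 11.6 in D and 27.1 in F. The part of oligodendrocytes in the Map4 and Map7 values was not tested. The 3 oligodendrocyte precursor genes also rose, from a summed 4.37 FPKM in A to 30.8 in F. Of 8 astrocyte genes 3 rose and 0 fell (753 in E to 1010 in F), of 6 microglia genes tested 3 rose and 2 fell, and of 3 endothelial genes tested Cldn5 fell. Of 9 neuronal genes 3 rose and 4 fell, with a summed 1965 FPKM in A and 2960 to 3960 in B to F, none at 0 in any library, and the 4 layer genes all passed, Cux2 and Rorb falling and Fezf2 and Tbr1 rising. After median of ratios the counts of rising and falling genes were 10 and 0 for oligodendrocytes, 2 and 0 for their precursors, 2 and 2 for astrocytes, 2 and 2 for microglia, 0 and 2 for endothelium, 2 and 4 for neurons and 2 and 2 for the layer genes.

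**Figure D4:**
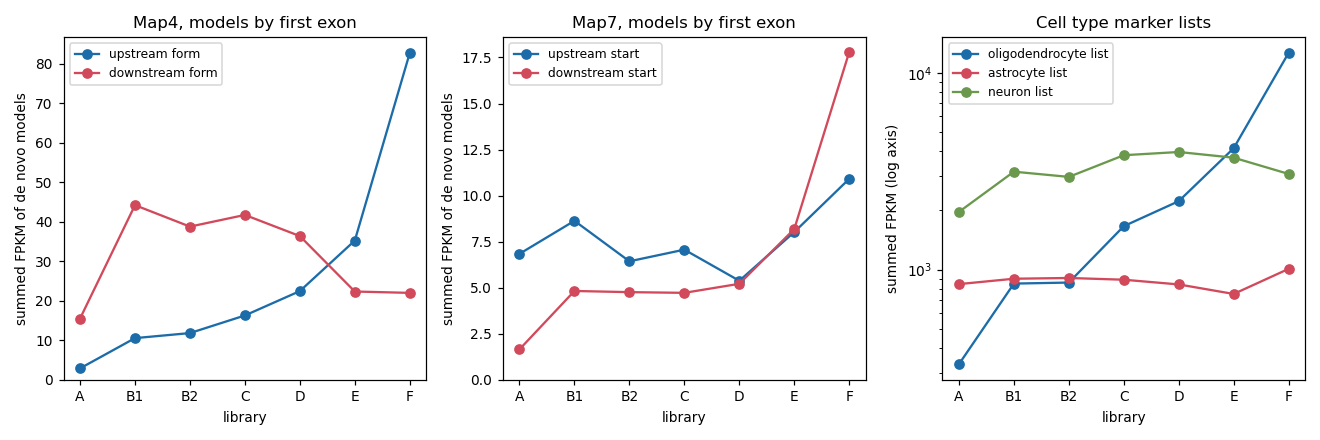
Left and centre, summed FPKM (y axes, from 0) of groups of de novo models of Map4 and Map7, by library. The Map7 groups are by start. The upstream Map4 form is the group that holds the long internal exon, not all models with the upstream start. The upstream Map4 form and the downstream Map7 start are highest in F (82.7 and 17.8). Right, summed FPKM of the marker lists on a log axis. The oligodendrocyte sum goes from 331 in A to 12637 in F, while the astrocyte sum stays between 753 and 1010. Within the astrocyte list Gfap had 34.4 FPKM in A, 4.42 in C and 126 in F.

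Map1a, which encodes the heavy chain common in mature dendrites, lies at chr2:121115336-121136568 (mm9). Its FPKM was 214 (A), 296 (B1), 195 (B2), 227 (C), 224 (D), 195 (E), then 153 (F). F was below every other segment, but B1 and B2 differed by 0.60 log2 units, nearly the range of 0.68 between segments B and F. The linear term of -0.10 did not pass (limma adjusted p = 0.16), and after median of ratios it was -0.20 and passed (adjusted p = 0.046). It also passed with the spliced de novo models in place of the Ensembl value (-0.13, limma adjusted p = 0.049) and with B1 and B2 averaged (-0.098).
ENSMUST00000110639 had 91.0% to 94.5% of the FPKM, and ENSMUST00000094639, from the upstream start, had 8.97% (A), 5.59% (B1), 9.04% (B2), 7.93% (C), 7.89% (D), 6.46% (E), then 5.49% (F). The range over segments was 3.48 percentage points and the difference between B1 and B2 was 3.45. The upstream form has a coding exon of 102 nt that the other lacks and that has a counterpart of the same length in Map1b (exon 2 of 7 in both, chr2:121290720-121290821, plus strand, and chr13:99508108-99508209, minus strand, GRCm38). Both are shown with the bases they share in capitals.
Map1a: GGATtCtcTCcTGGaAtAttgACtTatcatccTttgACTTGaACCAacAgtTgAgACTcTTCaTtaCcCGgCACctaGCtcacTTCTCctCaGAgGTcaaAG
Map1b: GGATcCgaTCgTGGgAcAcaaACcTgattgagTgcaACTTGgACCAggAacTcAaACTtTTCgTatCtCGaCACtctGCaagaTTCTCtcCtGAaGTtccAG
They share 55 of 102 bases, and the 2 exons that follow share 49 of 83 and 73 of 141, so the exon lengths of this end of the genes are the same. In the de novo models the upstream start had 12.1% (A), 18.1% (B1), 14.6% (B2), 23.2% (C), 24.6% (D), 16.1% (E), then 12.2% (F), highest in layer 5. An unspliced model lay over exons of Map1a in all 7 libraries. The libraries kept no strand, and the part of this model in these sums was not tested.

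Map1b, whose product is known for growing axons, had 1 listed transcript (chr13:100194396-100286495, mm9), 8813 nt long in the files against 11808 nt in GENCODE M21. Its FPKM was 104 (A), 97.3 (B1), 125 (B2), 156 (C), 149 (D), 149 (E), then 144 (F). C was highest, D and E had overlapping intervals, F lay just below them, and A fell within the span of B1 and B2. The range of 0.59 log2 units compares with 0.36 between B2 and B1. The linear term of 0.11 did not pass (limma adjusted p = 0.12), nor did the 0.011 after median of ratios (adjusted p = 0.92), and it passed when the spliced de novo model replaced the Ensembl value (0.14, adjusted p = 0.041).

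Map6, whose product protects microtubules against cold, lies at chr7:106415957-106485646 (mm9). Its FPKM was 28.0 (A), 58.3 (B1), 36.0 (B2), 49.8 (C), 50.9 (D), 51.3 (E), then 53.6 (F). A was below every other segment, and F lay above C and D but within the span of B1 and B2, which differed by 0.70 log2 units and lay on either side of C to F. The linear term of 0.13 did not pass (limma adjusted p = 0.13), and without library B1 it was 0.18 and passed (adjusted p = 0.011).
ENSMUST00000068973, of 4 exons and 2718 coding nt, had 84.1% to 91.5% of the FPKM. ENSMUST00000127492, of 3 exons and 1704 coding nt, which ends in a longer exon 3, had 14.1% (A), 8.45% (B1), 13.9% (B2), 13.9% (C), 13.5% (D), 15.3% (E), then 15.9% (F). The difference between B1 and B2 of 5.45 percentage points was larger than the range over the segments of 4.72.

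Over the 105 comparisons of the 7 members between pairs of segments, 74 (70.5%) had intervals that did not overlap, against 59.6% over all classifiable genes. For A the members apart were 4 against B (62.8% of all genes), 6 against C (82.7%), 6 against D (83.7%), 6 against E (84.1%) and 7 against F (85.2%). For B they were 3 against C (37.3%), 3 against D (43.7%), 3 against E (51%) and 5 against F (56%). For C they were 3 against D (34.3%), 4 against E (52.3%) and 7 against F (62.4%), for D 4 against E (45.1%) and 7 against F (60.4%), and for E 6 against F (53.8%). By gene, Map2 did so in 15 of 15 pairs, Mapt in 14, Map1b in 13, Map1a in 10, Map4 in 9, Map6 in 7 and Map7 in 6. Between B1 and B2, which are 1 segment, 6 of 7 members did (66.4% of all genes), and Map7 was the exception. The intervals are thus narrower than the difference between these 2 libraries, and a nonoverlap alone is not a difference between layers.

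Among the other genes of the microtubule system, lists chosen by function showed the following. Of 12 tested genes for other microtubule-binding proteins, 4 rose and 0 fell (limma), with a median linear term of 0.12 over the list and 0.093 over all genes, of which 35.5% rose and 8.06% fell. The counts of this and the following lists were not tested against these shares, and nothing particular to a list is read from them. The called terms ran from 0.18 ± 0.040 for Dclk2 to 0.41 ± 0.054 (SE) for Dclk1, both doublecortin-like kinases. Dclk1 had 42.9 FPKM in A and 232 in F. Of 14 genes for end-binding proteins 8 rose and 0 fell, from Clip4 (0.11 ± 0.035) to Clasp2 (0.36 ± 0.053), which binds growing plus ends. Of 12 tubulin genes 5 rose and 1 fell. Tubb4a, a beta-tubulin abundant in myelinating cells, rose by 0.26 ± 0.049 (244 FPKM in A and 729 in F), and Tuba8, an alpha-tubulin, fell by 0.44 per segment (15.7 FPKM in A and 3.43 in F). Of 8 tested destabilisers 3 rose and 0 fell, from the stathmin Stmn2 (0.12 ± 0.051) to the severing enzyme Spast (0.25 ± 0.043). Of 10 tested kinases of tau and the MAPs 3 rose and 1 fell, with Dyrk1a at 0.24 ± 0.055 and Mark2, which phosphorylates the repeats, falling by 0.16 per segment. After median of ratios the counts of rising and falling genes became 2 and 1 for the other binding proteins, 3 and 0 for the end-binding proteins, 0 and 1 for the tubulins, 1 and 1 for the destabilisers and 0 and 2 for the kinases, at 17.3% and 15.6% of all genes.

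**Figure D5:**
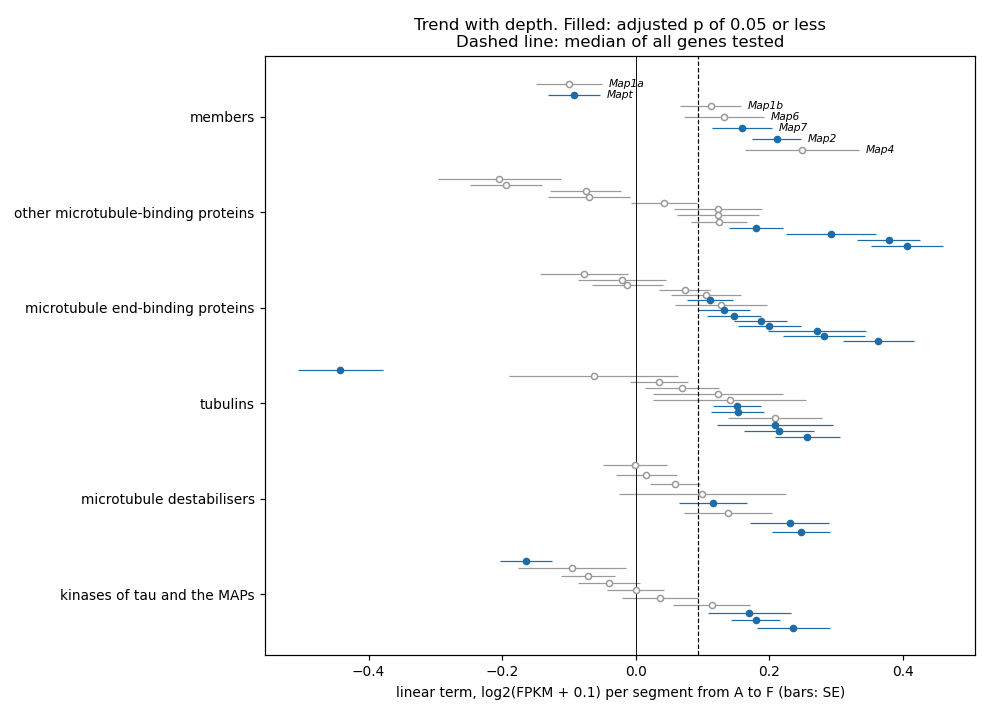
Linear term of the trend in log2(FPKM + 0.1) per segment (x axis, bars are SE) for the members and the genes of 5 lists (rows), filled where the adjusted p was at most 0.05. The dashed line is the median of all genes tested, 0.093. Of the members, Mapt (-0.093) and Map1a (-0.10) lie left of 0 and the other 5 right of it.

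Across the 7 libraries, the genes most like each member, among classifiable genes whose mean reached 1 FPKM, by Pearson's r of log2(FPKM + 0.1), were Kcnk12, Tmem204 and Chpf for Map1a (r = 0.97 to 0.98), Atp6v1e1, Hspa9 and Nmd3 for Map1b (0.99), and Rtca, Ppip5k1 and Rnf6 for Map2 (1.00). They were Patz1, Sash1 and Rad9a for Map4 (0.99), 1810013L24Rik, Lhfpl4 and Exoc8 for Map6 (1.00), Camk1, Stard3 and Zhx2 for Map7 (0.98 to 0.99), and Rrbp1, Ppib and Ddrgk1 for Mapt (0.99). These values are a description over 7 points that share library A, and with 10143 genes to choose from high values occur for any gene. Between members, r was highest for Map2 and Map6 (0.83) and for Map4 and Map6 (0.83) and lowest for Mapt and Map2 (-0.93), the latter with the Ensembl total of Mapt that rests on library A.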

How the data were processed

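The 7 libraries of S1 were used, 1 for each of 5 segments and 2 for segment B. As the authors describe, paired reads were mapped to mm9 with TopHat 1.0.13, and Cufflinks 0.8.3 estimated FPKM, once against the genes of Ensembl release 57 with their transcripts and once without annotation (versions from the submitters' processing notes). The FPKM were deposited on a linear scale with 95% intervals, and an absent entry was set to 0. The coverage deposited with the transcripts was used to estimate depth. The exon positions of de novo models are those the authors deposited, on mm9. Models of at least 2 exons on the strand of the gene counted as spliced, and the use of an exon is the FPKM of those holding it over that of those spanning it. Transcripts were assigned to genes by position (44576), identifier (1829) or FPKM (526). GENCODE M21 and RefSeq are on GRCm38, so their positions were not compared with those of the mm9 models. GENCODE transcripts were taken by identifier and RefSeq windows by gene name. Exons in de novo models were recognised by their length in GENCODE M21, and the long first exon of Map4 by a similar length. The trend fits used limma 3.58.1 in R 4.3.3 with a pseudocount of 0.1 and 4 residual degrees of freedom, and share trends took transcripts with a mean of at least 1 FPKM from genes with 2 or more such transcripts. The fits were tested on simulated data. B1 and B2 are pools of 2 litters by the study's methods, and the other libraries pool all 8 mice. The p-values measure only the spread of these 7 libraries around the fitted curve, in which B1 and B2 are the only replicates. The members and gene lists (other microtubule-binding and end-binding proteins, tubulins, destabilisers, kinases, and markers of oligodendrocytes and their precursors, astrocytes, microglia, endothelium, neurons and layers) were chosen with earlier results of these data known. The text names every member and its transcripts, for each list of the microtubule system the called gene with the largest and the smallest linear term, and for each member the 3 most similar genes. The de novo comparisons were chosen after the data were seen. Alternatives varied the pseudocount, scaling, gene filter, model, treatment of B1 and B2 and GC content, left out each library and widened the intervals. Some results of the de novo models are not reported here.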

Additional observations from a re-analysis of the deposited data

Results flagged for a closer look

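The de novo assemblies held a Map4 model that the shares of the Map4 forms leave out and that is not among the listed Ensembl transcripts. The sums of all spliced Map4 models include it. This model has 4 exons from the upstream start, from 109834287 to 109908365 (mm9). It was listed at 15.4 FPKM (A), 28.4 (B1), 34.9 (B2), 52.2 (C), 55.0 (D), 56.1 (E, 95% interval 54.1 to 58.1), then 42.2 (F), and it drew attention because its interval was above 0 in all 7 libraries. Its level was highest in D and E, whereas the models with the 1134-nt exon were highest in F, and this difference was not tested. No group had enough libraries for a search for outlying samples.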

How the results depend on the processing

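The count of 3 members with a trend ran from 1 (without A, C or E) to 5 (without B1) when a library was left out. Of all genes, 10.1% were called without A, 28.9% without C, 29.2% without E and 57.9% without B1. The count of members was 2 to 4 under the other pseudocounts, scaling, gene filters, the removal of GC content and both settings chosen after the data were seen. Apart from the settings chosen afterwards, these called 25.4% (all listed genes) to 47.4% (GC content removed) of all genes tested. It was 0 with the linear term only (18.7% of all genes). It was also 0 with the F-test over 6 segments, where limma called 0 of 11409 genes (2111 at an unadjusted p of at most 0.05). With B1 and B2 averaged it was 5 (53% of all genes), and the cause was not tested. Mapt turned from a linear term of -0.093 to 0.039 with spliced de novo models and to 0.068 with ENSMUST00000106993 taken out, both chosen after the data were seen. Map2, Map7 and Mapt each lost their call with at least 1 left-out library. For the share trends the count was 0 under every setting run. The pairs of segments with intervals apart ran from 66 (intervals widened 2 times) to 87 (without B2), against 74. The share over all genes was 59.6% for the 74 and is not given for the other settings. Nothing about the members is therefore read from this range. Isoforms in opposite directions were found in 2 members (64.9% of all genes tested), in 3 without B1 (72.9%) and in 4 without B2 (74.6%). They were found in 3 members after median of ratios (66.7%), in 2 with intervals widened 2 times (45.6%) and in 3 with all listed transcripts (62.7%). No paired analysis was possible because replicate numbers exist for segment B alone. With 1 library for each other segment, differences between libraries cannot be told apart from layer.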
